A study of Mus musculus with 3 samples.

Results

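The genes described here build the core of the sperm tail: the cilia and flagella associated proteins (Cfap), the radial spoke proteins (Rsph), the tektins (Tekt), the subunits of the nexin-dynein regulatory complex (Drc) and the sperm flagellar proteins (Spef). They were taken by symbol from all probe sets that name a single gene, which gave 47 genes of 19938 named genes on the array, measured by 77 probe sets. The rule uses symbols only, and it was set with earlier results of these data known. RNA was measured on 3 replicate arrays. The cells carry the label of spermatids, the haploid germ cells that grow the flagellum, and came from testes of wild-type male BALB/c mice aged 30 days. The samples formed 1 group with no treatment and no control, so a level can be compared only with background genes or with the other genes of the array. Levels are log2 RMA values (1 unit is a doubling of signal), errors are SDs over the arrays, and n = 3 throughout. The labels do not say whether the replicates came from separate animals, so the spread and the p-values built on it may be technical.

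The flagellum is driven by the axoneme, a ring of doublet microtubules around a central pair. Dynein motors on each doublet slide it against its neighbour. Radial spokes and the projections of the central pair regulate that sliding, the nexin-dynein regulatory complex links the doublets, and tektins and other inner proteins stiffen the doublets from within. In the testis the tail is assembled after meiosis, by round and elongating spermatids. The same machinery moves the cilia of airway, brain ventricle and efferent duct, and several components have separate paralogs for sperm and for cilia.

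The protocol in the labels describes a filtered suspension of testis tubule cells and no sorting step. Background was set at 7.98, the 95th percentile of the means of 211 vomeronasal receptor and hair keratin associated protein genes, which are not known as testis genes, and their median was 4.77. A gene was called when limma's one-sided test placed its mean above that level after Benjamini-Hochberg adjustment over all genes. This held for 36.6% of all named genes. Among marker lists of cell types, all 12 round spermatid, all 12 elongating spermatid (with Tekt2, which is 1 of the 47 genes) and all 10 pachytene spermatocyte markers were called, as were 6 of 7 measured Leydig, 7 of 10 Sertoli, 4 of 10 spermatogonial, 4 of 8 peritubular and vascular, and 4 of 7 blood and immune markers. At a stricter background, the 99th percentile in place of the 95th, 19.3% of all named genes passed. Markers passed in 0 of 10 spermatogonial, 3 of 10 Sertoli, 1 of 8 peritubular and vascular and 2 of 7 blood and immune cases. So did 5 of 7 Leydig, 10 of 12 round spermatid, all 12 elongating spermatid and 9 of 10 pachytene markers. Without replicate 1, and also without replicate 3, the peritubular and vascular count and the blood and immune count fell to 2 each. None of 11 genes of other tissues passed in limma's adjusted test, and all had means below the background level. With a lower background level, taken from olfactory receptor genes, 3 of the 11 were called, as were 55.0% of all named genes. In such a mixture, fewer cells of a type and less RNA per cell cannot be told apart. The arrays correlated at Pearson's r of 0.992 to 0.995 across 35556 probe sets, which are not independent replicates. Of all named genes 46.0% had equal values on all 3 arrays, and where a gene is described as equal on the arrays its SD of 0 is not an absence of error.

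The promoters are shown first, because a half-site of RFX factors was found in them in a larger share than over all named genes. RFX factors, which drive ciliary genes in cilia and in spermatids, bind the X-box, an inverted pair of half-sites written GTTGCC on one strand and GGCAAC on the other. RefSeq promoter windows of build GRCm38.p6, from 250 bases before to 50 bases after each annotated start, were at hand for 39 of the 47 genes. Stretches that lie before the start are given 5′ to 3′ on the strand of the gene, with every half-site or pair of half-sites in capitals. They were chosen to show a pair of half-sites, several half-sites close together, and half-sites of a further tektin and of a regulatory complex subunit. The stretch of Tekt2 shows 1 of the 2 half-sites in its window. That of Cfap161 ends within a further half-site, which begins at position -39 from the start and is left in lower case.
Cfap298, chr16:90934999-90935062, minus strand: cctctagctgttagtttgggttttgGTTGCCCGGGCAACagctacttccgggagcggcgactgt
Cfap20dc, chr14:8666354-8666417, minus strand: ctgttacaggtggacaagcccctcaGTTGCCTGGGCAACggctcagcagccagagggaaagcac
Tekt1, chr11:72361887-72361942, minus strand: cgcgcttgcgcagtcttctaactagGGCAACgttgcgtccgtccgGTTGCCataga
Cfap161, chr7:83794875-83794930, minus strand: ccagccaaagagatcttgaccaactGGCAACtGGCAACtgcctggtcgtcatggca
Tekt2, chr4:126325754-126325809, minus strand: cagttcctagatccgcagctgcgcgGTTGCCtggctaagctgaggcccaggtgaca
Drc1, chr5:30281357-30281392, plus strand: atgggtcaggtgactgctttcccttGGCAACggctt

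The half-site GTTGCC, searched on both strands, was present for 15 of the 39 genes (38.5%). Over all named genes with a window it was present for 14.0% of 15563, and for 17.0% of the 5975 that were called above background. Other genes of the flagellum and cilium, from 9 lists on dyneins, further axonemal complexes, transport and accessory structures, held it in 47 of 101 cases (46.5%). A pair of half-sites (GTTNCC and GGNAAC with 0 to 3 bases between them, which includes GTTGCC half-sites) was found for 2 of the 39, Cfap298 and Cfap20dc, against 0.957% of all named genes. In Cfap298 a second pair began at position -69 from the start.

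Motifs of other kinds were not more frequent than over all named genes. The cyclic AMP response element TGACGTCA, which CREM binds in spermatids, was found for 0 of the 39 genes and in 2.72% of all named genes, and its half-site TGACGT, which the full element contains, in 1 (Tekt1) and in 10.2%. TATAAA was present for 2 genes (5.13%), Cfap97d1 and Rsph14, against 13.6%, and CCAAT for 15 (38.5%) against 41.7%. These letters are matches and not shown binding sites, and no test was made of the shares. The levels of the genes did not sort by the X-box half-site. The 15 genes with it ranged from 7.91 to 12.05 with a median of 9.94, and the 24 with a window but no half-site from 7.78 to 12.40 with a median of 10.13. Of the 4 RFX factor genes listed, Rfx4 was at 10.28 ± 0.01, Rfx2 at 9.61 and Rfx3 at 9.09, the latter pair equal on the arrays, and these 3 were called. Rfx1 at 7.96 ± 0.02 was not called.

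**Figure D1:**
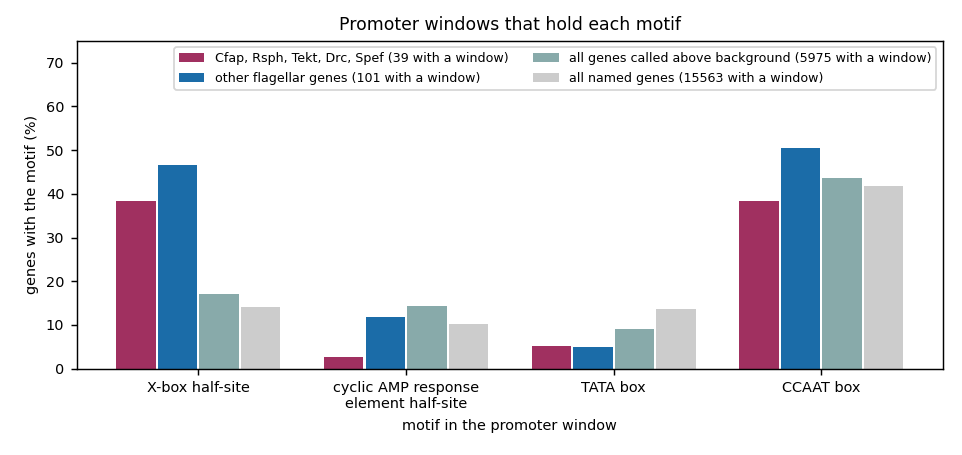
Share of genes (%, vertical axis) whose promoter window holds each of 4 motifs, for the Cfap, Rsph, Tekt, Drc and Spef genes, other flagellar genes, all genes called above background and all named genes. The X-box half-site stands at 38.5% and 46.5% in the flagellar gene sets against 17.0% and 14.0% in the larger sets.

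Most of the 47 genes lay far above background. By limma's adjusted test 43 of the 47 genes were called, against 36.6% of all named genes. The median level of the 47 was 10.13 (10.13, 10.13 and 10.17 on replicates 1, 2 and 3), against 7.45 for all named genes. Of the 47 genes 25 stood at 10 or higher, where 12.0% of all named genes stood, and 4 stood at 12 or higher, where 0.777% did. The 4 were Cfap206, Rsph1, Tekt2 and Cfap97. Probes differ in how strongly they bind, so the order of genes describes signal and not RNA copies.

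**Figure D2:**
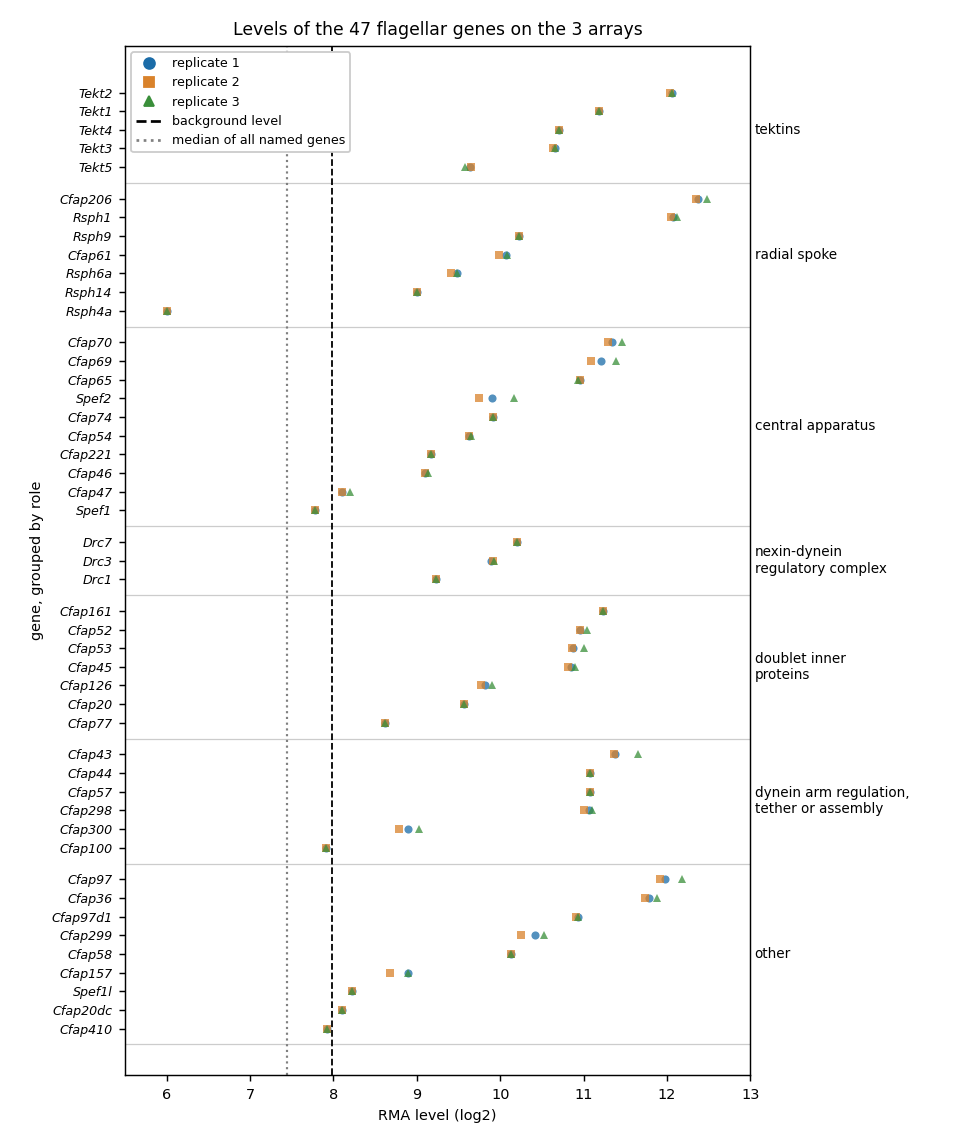
RMA level (log2, horizontal axis) of each of the 47 genes on each array, grouped by role and ordered by mean, with the background level of 7.98 dashed and the median of all named genes, 7.45, dotted. Of the genes 43 are called above background, and Rsph4a at 6.01 stands apart below it.

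The tektins, rod-shaped proteins of the doublet lumen, were above background in all 5 members, against 36.6% of all named genes. Tekt2 was at 12.06, 12.04 and 12.06 on replicates 1, 2 and 3 (12.05 ± 0.01; adjusted p = 2.17e-06, limma). Tekt1 at 11.19 and Tekt4 at 10.71 were equal on the arrays, and Tekt3 was at 10.64 ± 0.01. Tekt5 was the lowest at 9.64, 9.64 and 9.58 (9.62 ± 0.03). The arrays spread by at most 0.06 for any tektin, while neighbours in the order were 0.06 (Tekt4 and Tekt3) to 1.02 (Tekt3 and Tekt5) apart.

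The radial spokes had the widest spread of any role, from the highest of the 47 genes to the lowest. Cfap206, which anchors a spoke to the doublet, was at 12.37, 12.35 and 12.48 (12.40 ± 0.07; adjusted p = 5.43e-05, limma), above 99.8% of named genes. Rsph1, a spoke head protein with MORN repeats, was at 12.07, 12.05 and 12.12 (12.08 ± 0.03). The spoke head gene Rsph9 was at 10.23 and the armadillo repeat gene Rsph14 at 9.00, both equal on the arrays, and Cfap61, of the complex at the spoke base, was at 10.05 ± 0.05.

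Rsph4a and Rsph6a encode paralogous spoke head proteins, Rsph4a known from motile cilia and Rsph6a from the sperm tail. Rsph6a was at 9.49, 9.41 and 9.49 (9.46 ± 0.05; adjusted p = 0.000219, limma). Rsph4a was at 6.01 on every array, below the background level and above 16.8% of named genes. It was the only one of the 47 genes below the median of all named genes, and the only one not called even with a lower background level taken from olfactory receptor genes. Each paralog was measured by 1 probe set, so their levels also carry the difference between 2 sets of probes. The stalk genes Rsph3a and Rsph3b share both of their probe sets and are not counted among the 47. Those probe sets were at 11.98 ± 0.06 and 12.18 ± 0.01, and the signal cannot be divided between the copies.

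Central apparatus genes were called in 9 of 10 cases, from 11.37 down to 7.78, against 36.6% of all named genes. At the 99th percentile background 7 of 10 were called, against 19.3%. Cfap70 was at 11.34, 11.30 and 11.47 (11.37 ± 0.09) and Cfap69, which is needed for normal tail shape, at 11.20, 11.09 and 11.39 (11.23 ± 0.16). Cfap65 was at 10.95 ± 0.01. Of 4 further genes of central pair projections, Cfap74 was at 9.91 and Cfap221 at 9.17, both equal on the arrays, Cfap54 at 9.63 ± 0.01 and Cfap46 at 9.11 ± 0.02. Spef2, a projection protein also needed for tail assembly, was at 9.91, 9.74 and 10.17 (9.94 ± 0.21; adjusted p = 0.00298, limma). Without replicate 1 its call was lost (adjusted p = 0.0538, limma). Its mean on the remaining arrays stood 1.98 above the background level, against 1.96 with all 3 arrays.

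Cfap47, the only one of the 47 genes on chromosome X, was at 8.11, 8.11 and 8.20 (8.14 ± 0.05). It passed narrowly (adjusted p = 0.033, limma) and did not pass without replicate 1 (adjusted p = 0.15, limma) or replicate 2 (adjusted p = 0.158, limma). There its mean stood 0.17 and 0.21 above the background level, against 0.16 with all 3 arrays. Without replicate 3 it passed, on remaining arrays whose values were equal. At the stricter background Cfap47 was not called. Spef1, which bundles the microtubules of the central pair, was at 7.78 on every array and was not called. Its paralog Spef1l was called at 8.22, equal on the arrays.

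The symbol rule took 3 genes of the nexin-dynein regulatory complex, and all 3 were called. They are not the whole complex, because further subunits carry other symbols. In a list of such subunits and doublet ruler genes, given below, 10 of 11 were called. The subunit gene Ccdc153, at 7.19 ± 0.03, was not called. Drc7 was at 10.20 on every array, Drc3 at 9.89, 9.92 and 9.93 (9.91 ± 0.02) and Drc1, a scaffold of the complex, at 9.23 ± 0.0005.

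Inner proteins of the doublets other than tektins were called in all 7 cases, against 36.6% of all named genes. Cfap161 was at 11.24, equal on the arrays, Cfap52 at 10.98 ± 0.05, Cfap53 at 10.91 ± 0.08 and Cfap45 at 10.85 ± 0.04. Cfap126, also known as Flattop, was at 9.83 ± 0.06 and Cfap20 at 9.56. Cfap77 was the lowest at 8.61, equal on the arrays as was Cfap20.

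Genes that tether, regulate or assemble dynein arms were called in 5 of 6 cases, against 36.6% of all named genes. Cfap43 and Cfap44, partners in the tether of an inner arm dynein, were at 11.47 ± 0.16 and 11.08, the latter equal on the arrays, and Cfap57 was at 11.07 ± 0.0005. The assembly factor gene Cfap298 was at 11.06, 11.00 and 11.09 (11.05 ± 0.05). Cfap300, also an assembly factor, was lower at 8.90, 8.79 and 9.02 (8.90 ± 0.11; adjusted p = 0.00394, limma). It was not called without replicate 1 (adjusted p = 0.0634, limma). Its mean there stood 0.93 above the background level, against 0.92 with all 3 arrays. Cfap100, a regulator of inner arm dynein, was at 7.91 on every array and not called.

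The remaining 9 genes have roles outside these structures or less settled ones. Of these, 8 were called, against 36.6% of all named genes. Cfap97 was at 11.97, 11.92 and 12.18 (12.02 ± 0.14) and its relative Cfap97d1 at 10.92 ± 0.02. Cfap36 was at 11.80 ± 0.07, Cfap299 at 10.40 ± 0.14 and Cfap58, which is needed for the sperm midpiece, at 10.13, equal on the arrays. Cfap157, a sperm tail gene, was at 8.89, 8.67 and 8.89 (8.82 ± 0.13; adjusted p = 0.00598, limma). Its call was lost without replicate 1 (adjusted p = 0.071, limma) or replicate 3 (adjusted p = 0.105, limma). In both settings its mean stood 0.80 above the background level, against 0.84 with all 3 arrays. Cfap20dc was called at 8.10 and Cfap410, which also acts in photoreceptors, was not called at 7.92, both equal on the arrays. For a gene with equal values the test amounts to asking whether its level exceeds 7.98, and Cfap100 and Cfap410 missed it by 0.07 and 0.06 while Cfap20dc exceeded it by 0.12. With the background level from olfactory receptor genes, Cfap100, Cfap410 and Spef1 were called too, which gave 46 of 47 genes against 55.0% of all named genes. At the 99th percentile of the first background families, 35 of 47 genes were called against 19.3%. The calls lost there were those of Cfap46, Cfap47, Cfap77, Cfap20dc, Cfap157, Cfap300, Rsph14 and Spef1l. With probe sets of several genes added, the background level was 8.33 and the calls of Cfap20dc, Cfap47 and Spef1l were lost.

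Where the arrays differed for these genes, replicate 3 was mostly the highest. The values of 18 genes were equal on all arrays, and of the other 29 genes replicate 3 was the highest in 21 and replicate 2 the lowest in 21. Among all untied genes called above background, replicate 3 was the highest in 62.0% and replicate 2 the lowest in 58.7%, so a like pattern was present among other expressed genes. Over all untied named genes the shares were 33.9% and 32.0%. Whether the shares differ was not tested. The median difference of replicate 3 from replicate 2 was 0.09 over the 29 genes, 0.07 over those expressed genes and -0.0047 over all untied named genes. It was 0.14 over the untied peritubular and vascular markers, and 0.11 over the Leydig and over the blood and immune markers. It was 0.13 over the pachytene, 0.07 over the elongating spermatid and 0.03 over the round spermatid markers. Over the Sertoli markers it was 0.0095, over the spermatogonial markers -0.024 and over the ciliated epithelium markers -0.09. Of the 5 untied peritubular and vascular markers, replicate 3 was the highest in 0 and replicate 2 the lowest in 4. Of the 5 untied Leydig markers, replicate 1 was the highest in 3 and replicate 2 the lowest in 4. Over the epididymal markers the median difference was 0.05. Spink8, however, was at 7.37, 8.68 and 10.23 on replicates 1, 2 and 3, and Adam7 at 5.28, 6.61 and 8.26. Both were lowest on replicate 1 and highest on replicate 3, with differences larger than for any of the 47 genes. The part of these markers in the differences among the 29 genes was not tested. The 5 genes with the largest range over the arrays were Spef2 (0.42), Cfap69 (0.31), Cfap43 (0.29), Cfap299 (0.28) and Cfap97 (0.26). Tekt5 and Cfap65 went the other way, with replicate 3 lower than replicate 2 by 0.06 and by 0.02.

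**Figure D3:**
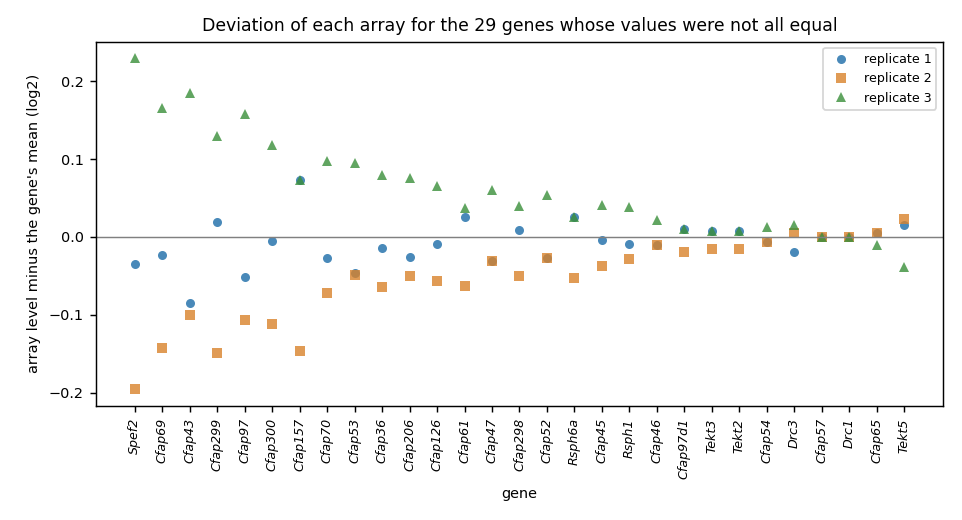
Level on each array minus the mean of the gene (log2, vertical axis) for the 29 genes whose values were not all equal, ordered by the difference of replicate 3 from replicate 2. Replicate 3 is the highest array for 21 of them. The difference of replicate 3 from replicate 2 falls from 0.42 for Spef2 to -0.06 for Tekt5.

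Genes covered by many probe sets showed how much a level depended on the probes. Spef2 had 22 probe sets, whose means ran from 7.39 to 11.27 with a median of 9.94, and 20 of them lay above the background level. On 19 of the 22 replicate 3 was the highest array, and the other 3 were equal on the arrays. The difference of replicate 3 from replicate 2 reached 0.85 in a probe set of Spef2. Cfap43 had 5 probe sets between 10.40 and 12.01, all with replicate 3 highest and replicate 2 lowest. Another 5 genes had 2 probe sets each. Those of Cfap61 (9.11 and 10.98), Cfap54 (8.82 and 10.44) and Cfap57 (10.52 and 11.63) lay further apart than those of Cfap46 (8.96 and 9.26) and Cfap74 (9.91 and 9.92). Probe sets of a gene thus differed by up to 3.88, while the arrays differed by at most 0.85 within a single probe set. For the levels of the 47 genes, medians over their probe sets, the arrays differed by at most 0.42.

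**Figure D4:**
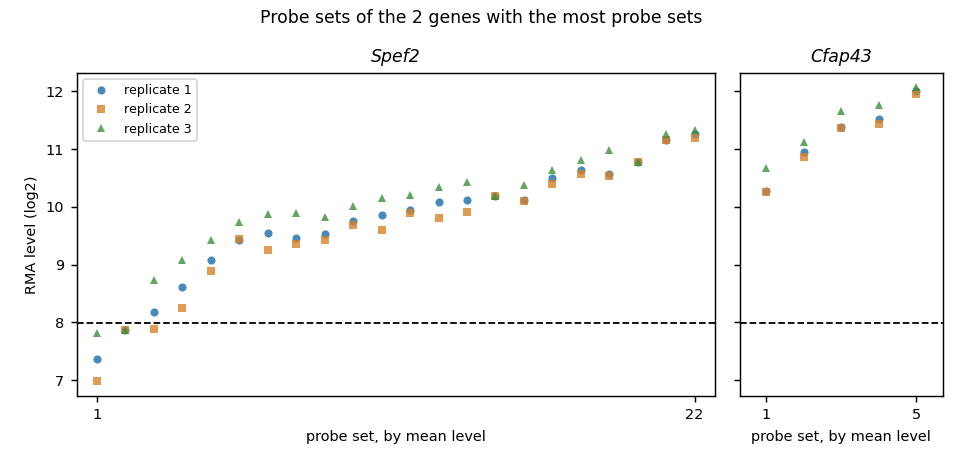
RMA level (log2, vertical axis) of each probe set of Spef2 (22) and Cfap43 (5) on each array, ordered by mean level, with the background level dashed. Probe sets of Spef2 span 7.39 to 11.27, and replicate 3 is the highest in 19 of the 22.

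Further genes of the flagellum and cilium were measured on the same arrays, in 10 lists that the symbol rule did not take, 1 of them of transcription regulators. Together 117 of their 136 measured genes were called, with a median of 10.09, against 43 of 47 and 10.13 for the genes above and 36.6% of all named genes. Without the regulators, left out after their values were seen, 110 of 122 were called. Called were 12 of 12 further radial spoke genes (median 11.48; highest Dydc1 at 12.10 ± 0.05 and Ropn1l at 11.82 ± 0.09), 14 of 14 further central apparatus genes (median 10.02; highest Spag6l at 11.96 ± 0.07 and Spag17 at 11.72 ± 0.10) and 13 of 14 further doublet inner proteins (median 10.21; highest Mns1 at 12.06 and Enkur at 11.32 ± 0.14). Called too were 10 of 11 further genes of the regulatory complex and the doublet ruler, led by the ruler gene Ccdc39 at 12.09 ± 0.13. The exception was Ccdc153 at 7.19 ± 0.03. All 13 genes of outer dense fibres and fibrous sheath, 19 of 22 of intraflagellar transport, 11 of 12 of dynein preassembly and 9 of 11 of dynein arm chains and docking were called.

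Axonemal dynein heavy chains, the motors, were called in 11 of 15 cases with a median of 9.43. At the 99th percentile background 7 were called (19.3% of all named genes) and with olfactory receptor genes as background 14 (55.0%). The highest were Dnah8, the outer arm chain of the sperm tail, at 12.49 ± 0.06 and Dnah7c at 11.35 ± 0.04. The lowest were Dnah9 at 6.66 and Dnah5 at 7.38, outer arm chains of motile cilia, both equal on the arrays. Neither was called, and with olfactory receptor genes as background Dnah5 was called and Dnah9 was not. Of 14 regulators of ciliary and meiotic transcription 7 were called (36.6% of all named genes were), with Mybl1 at 11.25 ± 0.07 and Sox30 at 10.87 ± 0.08 the highest and Gmnc, a switch of multiciliated cells, at 5.35 the lowest.

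Ciliated epithelium, which uses many of the same genes and lines the efferent ducts next to the testis, was checked by a marker list. Of 14 markers 3 were called, or 6 with olfactory receptor genes as background, where 36.6% and 55.0% of all named genes were. The list median was 6.92 (6.89, 7.05 and 6.84 on replicates 1, 2 and 3). Deup1 at 11.65 ± 0.02, Cdhr4 at 10.56 ± 0.003 and Dynlrb2 at 10.32 ± 0.04 were the 3 called. Sntn, a protein of the ciliary tip, at 4.95 ± 0.05 and Fam216b at 5.15 ± 0.05 were the lowest. Sntn and Gmnc stood near the median of the background genes. Of 9 measured epididymal markers 1 was called, Aqp9 at 10.03 ± 0.02. Spink8 had a mean of 8.76 ± 1.43, above the background level, and was not called (adjusted p = 0.546, limma).

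**Figure D5:**
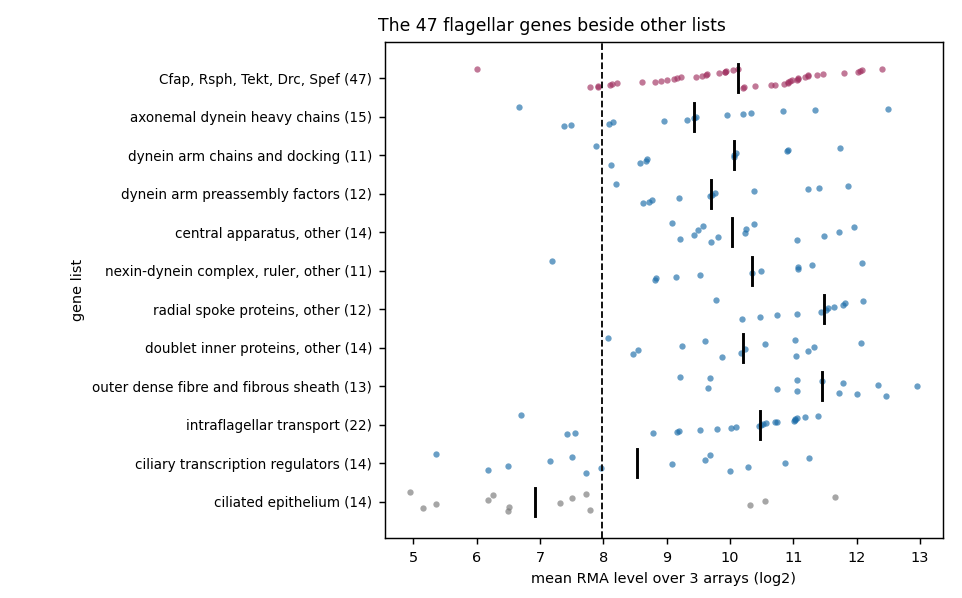
Mean RMA level (log2, horizontal axis) of each gene of the 47 and of 11 other lists, with a black bar at each list's median and the background level of 7.98 dashed. The lists of flagellar components have medians of 9.43 to 11.48, the transcription regulators one of 8.52 and the ciliated epithelium list one of 6.92.

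The 47 genes lay on 17 chromosomes, with 1 on chromosome X. Their genes were long, with a median span of 33.6 kb against 17.7 kb for all named genes in assembly GRCm38.p6. Of the 39 with a promoter window, 8 (20.5%) had a start within 1000 bases of the start of a gene transcribed the other way, against 14.4% of all named genes. Among these, Cfap57 (11.07) lies 14 bases from Ebna1bp2, which was at 10.31, and Cfap61 (10.05) 84 bases from Crnkl1 at 9.54. Drc3 (9.91) lies 475 bases from Tom1l2, which was at 7.73 and not called.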

How the data were processed

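The authors deposited log2 probe set levels from 3 arrays. Per the series' design text they applied Robust Multichip Average with Affymetrix Power Tools and mm9-based annotation to the Affymetrix GeneChip Mouse Gene 1.0 ST Array. No software version was found in the labels. Platform annotation named 1 gene for 21789 of 35556 probe sets and several for 1621. Symbols were updated by Entrez identifier to GRCm38.p6 (21698 matched), which left the same 47 genes. Probe sets of 1 gene were reduced to their median on each array. Levels were tested against background with limma 3.58.1 in R 4.3.3 (intercept model, one-sided, Benjamini-Hochberg at 0.05 over 19938 genes). The test was also tried on simulated data. Their noise was drawn from untied genes only, so the simulation does not cover genes with equal values on the arrays. The number of arrays limits the precision. Alternatives covered the background, probe sets, scaling, tied genes and each replicate. Motifs were searched in RefSeq promoter windows of GRCm38.p6. Genes, roles, lists and motifs were chosen with earlier results of these data known. Every Tekt, Rsph, Drc and Spef gene and every Cfap gene could be named, and of other lists at most the 2 highest and 2 lowest genes, apart from the RFX genes, Dynlrb2, Adam7 and the 3 neighbouring genes, which were chosen after their values were seen.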

Additional observations from a re-analysis of the deposited data

How the results depend on the processing

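Of the 47 genes, 35 were called at the 99th percentile background, 46 with olfactory receptor genes as background, 42 of 49 with probe sets of several genes added, and 29 of 29 among untied genes. Every gene of the 47 that was not called had equal values on the arrays. The restriction to untied genes therefore left out all that had failed, and its count is no check of them. Calls over all named genes were 3847 at the 99th percentile, 10958 with olfactory receptors and 6662 to 7090 without 1 replicate. They were 4547 of 10765 among untied genes and 6752 of 21335 with probe sets of several genes added. Without 1 replicate, with fewer arrays to estimate the spread, 39 to 42 of the 47 were called. The median level of 10.13 was 10.40 with the highest probe set per gene and 10.20 with probe sets of several genes added. The median deviation of the arrays from the gene means was taken over all 47 genes, with the 18 of equal values. It was 0, -0.0063 and 0.0078 for replicates 1, 2 and 3, and 0.0081, -0.023 and 0.016 with arrays centred on their medians. That of replicate 3 was 0.00029 with the highest probe set, and it ranged from 0 to 0.0094 without 1 replicate. Over the 29 untied genes alone the median deviations of replicates 1, 2 and 3 were -0.0063, -0.049 and 0.041. The cause was not tested. No paired analysis was possible because the samples formed 1 group. Signal over background limits Spef1, Cfap100, Cfap410, Cfap20dc, Cfap47 and Spef1l, the genes nearest to the level.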
